A study of Homo sapiens with 66 samples.

Results

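The 10 genes described here encode integrin chains of leukocytes, and they were followed across 11 acute myeloid leukaemia (AML) cell lines: the alpha chains ITGAM, ITGAX, ITGAL, ITGA4, ITGA5 and ITGA6, and the beta chains ITGB1, ITGB2, ITGB3 and ITGB7. They were chosen by symbol, and all 10 were found among the 57992 gene identifiers of the count tables. RNA was sequenced from F36P, HL60, KASUMI1, MOLM13, MONOMAC6, MV411, NB4, NOMO1, OCIAML2, OCIAML3 and THP1 cells, each kept in media alone (untreated) or exposed to etoposide for 24 hours, which gave 66 libraries, 3 for each group. Etoposide traps topoisomerase II on cut DNA, and each line received its own IC50, so doses differed between lines and a difference in response between lines cannot be told apart from a difference in dose. Each library came from cells of 3 pooled wells of 1 established line. The methods list granulocyte-macrophage colony stimulating factor in the medium of F36P, and human insulin, pyruvate and amino acids in that of MONOMAC6. Medium and serum also differed between lines. The authors discarded the etoposide libraries of OCIAML2 after quality control of their reads, and this line was therefore kept apart from the other 10 after etoposide.

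Integrins are cell surface receptors made of an alpha and a beta chain, and they bind leukocytes to other cells and to the extracellular matrix. ITGB2 pairs with ITGAL, ITGAM or ITGAX to give the receptors known as LFA-1, Mac-1 (CD11b/CD18) and p150,95, which bind ICAM proteins and, for Mac-1 and p150,95, complement fragments, and ITGAM is a standard marker of myeloid maturation. ITGB1 pairs with ITGA4 to bind VCAM1 and fibronectin, with ITGA5 to bind fibronectin and with ITGA6 to bind laminin. ITGB7 pairs with ITGA4 to bind MADCAM1 of gut venules, and ITGB3 pairs with ITGA2B on platelets or with ITGAV on many cells.

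On GRCh38 (gencode 44), ITGAL (chr16:30472658-30523567), ITGAM (chr16:31259967-31332892) and ITGAX (chr16:31355134-31382999) are all read from the plus strand of chromosome 16. ITGA6 (chr2:172427354-172506459) and ITGA4 (chr2:181457202-181538940) lie on the plus strand of chromosome 2, and ITGB7 (chr12:53191323-53207282) and ITGA5 (chr12:54395261-54419266) on the minus strand of chromosome 12. ITGB1 (chr10:32887273-33005792) and ITGB2 (chr21:44885953-44931989) are on the minus strand, and ITGB3 (chr17:47253827-47313743) is on the plus strand. ITGB3 shares 2266 exon bases with another gene of its own strand, ENSG00000259753, so its counts are uncertain there. Upstream sequence from RefSeq on GRCh38.p14 was at hand for 6 of the 10 genes (ITGAM, ITGA4, ITGA5, ITGA6, ITGB1 and ITGB7). The 250 bases before the start of ITGAM (chr16:31259725-31259974, plus strand) and of ITGB7 (chr12:53207252-53207501, minus strand) are shown because these genes were induced in the most lines (9 of 10 each). Capitals mark GAGGAA, a form of the core bound by the myeloid factor PU.1 and other ETS proteins, or its reverse complement TTCCTC. Other forms of this core were not marked.
ITGAM: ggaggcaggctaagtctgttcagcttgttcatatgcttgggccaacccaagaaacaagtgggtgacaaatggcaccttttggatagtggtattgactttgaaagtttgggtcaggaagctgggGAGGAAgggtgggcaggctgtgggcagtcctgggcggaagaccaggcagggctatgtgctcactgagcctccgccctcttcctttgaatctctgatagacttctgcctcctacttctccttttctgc
ITGB7: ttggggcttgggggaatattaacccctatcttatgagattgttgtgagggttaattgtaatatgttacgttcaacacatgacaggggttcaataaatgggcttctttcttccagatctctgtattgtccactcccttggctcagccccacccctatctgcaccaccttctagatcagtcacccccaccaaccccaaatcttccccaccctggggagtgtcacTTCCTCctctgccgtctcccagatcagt
The match lay 127 to 122 bases before the RefSeq start of ITGAM on the gene's strand and 28 to 23 bases before the RefSeq start of ITGB7 on the other strand. The gencode start of ITGB7 lies further upstream than that of RefSeq, so this match is inside the gene as gencode draws it. The 6 genes have 8 windows, 1 for each RefSeq start. GAGGAA was present on either strand in 3 of the 8 (ITGAM, ITGB1 and ITGB7), against 23.6% of 35116 windows of the same length. The RUNX core TGTGGT was found in 1 of the 8 (ITGA6; 11% of all windows), the GC box GGGCGG in 4 (ITGAM, ITGA5, ITGA6 and ITGB1; 42.6%), and a p53 half-site in 0 (5.6%). GAGGAA lay before ITGAM and ITGB7, induced in 9 lines each, and before ITGB1, called in 0. The matches describe letters, not binding.

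Reads on genes ranged from 17997404 to 24101670 per library, with a median of 20241014. Of the 8 haematopoietic and myeloid markers, PTPRC, CD33 and SPI1 were at 32.5 CPM or more in every untreated line, whereas CEBPA was at 0.588 CPM in untreated F36P, CSF1R at 0.142 CPM in untreated HL60 and CD14 under 1 CPM in 7 untreated lines. Their sum was between 851 and 27451 CPM in the 10 untreated lines and between 802 and 14021 CPM after etoposide, lower in 6 of the 10, as in KASUMI1 (27451 to 14021 CPM) and NB4 (17013 to 4845 CPM). MPO carried the fall in both, from 27115 to 13145 CPM in KASUMI1 and from 16521 to 4301 CPM in NB4. All other markers of the list rose in KASUMI1. In NB4, SPI1 and CEBPA also fell, whereas PTPRC, CD33, LYZ, CSF1R and CD14 rose. Erythroid markers summed to 7003 CPM in untreated F36P, the line of an erythroid leukaemia, and to between 0.0818 and 16.9 CPM in the other 10 lines. The summed level of 7 lymphoid markers was between 5.13 and 261 CPM in the 10 untreated lines and between 25.8 and 339 CPM after etoposide, higher in 8 of the 10. Before treatment NKG7 or NCAM1 led this list in most lines, CD3D in NOMO1 and CD79A in F36P and KASUMI1, whereas MS4A1 was at 0 CPM in the untreated libraries of every line but NOMO1. The 6 epithelial and fibroblast markers summed to 0.425 to 81.9 CPM before and 0.939 to 98.4 CPM after etoposide, higher in 9 of 10 lines. The sum went from 3.13 to 81.1 CPM in F36P (KRT8 from 2.43 to 73.1 CPM) and was 81.9 and 80.9 CPM in KASUMI1, mostly EPCAM. The summed level of 5 platelet markers reached 8.83 CPM in untreated F36P and 17.5 CPM after etoposide. The part of such markers in the results was not tested. Among the 66 libraries, 4 had over 5% of genes more than 0.5 log2 from the median of their group, against a median library of 0.193%. They were untreated F36P replicates 1 and 3 (10.97% and 6.60%), etoposide THP1 replicate 2 (8.49%) and etoposide OCIAML3 replicate 3 (7.71%). Without replicate 1 of untreated F36P and both etoposide libraries, the 10 genes had 41 induced and 4 repressed calls over the lines, and without F36P altogether they had 34 and 3.

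Before treatment, ITGAM, ITGAX, ITGAL and ITGB7 each differed by over 100-fold between the highest and the lowest line, and ITGA6 ran from 39.1 CPM in KASUMI1 to 0.0494 CPM (3 reads) in MV411, whereas ITGB2, ITGA5, ITGB1 and ITGA4 differed by 13.9, 13.5, 6.34 and 4.32-fold. Levels are given as CPM, counts per megaread of TMM-corrected library size, scaled over the 33 untreated libraries, as mean ± SD of 3. In bulk RNA, fewer cells that carry a gene and less RNA per cell cannot be told apart. ITGAM was highest in NOMO1 (204, 220.5 and 196 CPM) and lowest in KASUMI1 (0.456, 0.419 and 0.554 CPM), a ratio of means of 434. Between them, MOLM13 (46.6 ± 9.72) and THP1 (42.5 ± 2.09) did not differ beyond their spread (adjusted p = 0.362), and NB4 (26.0 ± 4.99), F36P (12.9 ± 1.87), OCIAML2 (8.72 ± 0.382) and MONOMAC6 (8.50 ± 0.437) followed. The lower end of the order was crowded. OCIAML3, MV411 and HL60, at 4.67, 3.85 and 3.05 CPM, were not told apart as neighbours. ITGAX kept NOMO1 (93.4 ± 4.54 CPM), THP1 (43.1 ± 2.95) and MOLM13 (38.2 ± 15.9) at the top, and F36P (0.588 ± 0.0270) was lowest. MONOMAC6 (32.6 ± 3.95), OCIAML2 (19.7 ± 1.88), NB4 (9.67 ± 4.22), MV411 (8.95 ± 0.847), OCIAML3 (5.19 ± 1.43), KASUMI1 (2.07 ± 0.123) and HL60 (0.972 ± 0.370) lay between. Pairs of lines were compared by edgeR (quasi-likelihood), with p adjusted by Benjamini-Hochberg over all genes.

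ITGAL, the alpha chain of LFA-1, ranged 787-fold, from 1303 ± 58.9 CPM in MOLM13 to 1.66 ± 0.499 CPM in F36P. Some lines were rich in it and others poor. MV411 (1153 ± 26.9), OCIAML2 (720.4 ± 25.2), MONOMAC6 (714 ± 19.0), NOMO1 (587 ± 27.4), HL60 (266 ± 8.18) and THP1 (214 ± 15.6) were among the former, whereas OCIAML3 (38.8 ± 3.97), NB4 (5.87 ± 0.713) and KASUMI1 (2.13 ± 0.174) lay far below. ITGB2, the shared beta chain of these receptors, was in contrast abundant in every line. MONOMAC6 stood highest with 1526, 1856 and 1828 CPM, and THP1 (554 ± 48.9) and OCIAML3 (539 ± 59.1) came next without differing (adjusted p = 0.745). MOLM13, OCIAML2, NOMO1 and F36P followed at 392, 354, 231 and 194 CPM, and MV411, NB4, KASUMI1 and HL60 were lowest at 171, 169, 134 and 125 CPM.

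ITGB7 was highest in NOMO1 (87.5, 99.5 and 95.1 CPM) and lowest in KASUMI1 (0.254, 0.471 and 0.221 CPM). Its order was MOLM13 (53.4 ± 4.82), MV411 (37.2 ± 1.22), OCIAML2 (34.8 ± 1.80), F36P (15.3 ± 0.953), MONOMAC6 (15.01 ± 0.557), THP1 (10.3 ± 0.717), OCIAML3 (5.79 ± 0.846), NB4 (1.23 ± 0.182) and HL60 (0.684 ± 0.0939) between these ends, and 8 of 10 neighbouring pairs differed. ITGA4, which serves both ITGB1 and ITGB7, was expressed in every line, from 691 ± 22.4 CPM in MONOMAC6 to 159.7 ± 4.71 CPM in MOLM13. NOMO1 (451 ± 47.1) was second, and F36P (269, 369 and 445 CPM) had the widest replicates and did not differ from HL60 (338 ± 22.9). No line lacked ITGA4. MV411, OCIAML2, NB4, KASUMI1, OCIAML3 and THP1 had 310.4, 247, 242, 223, 197 and 163 CPM.

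ITGA5, the fibronectin receptor chain, ran from 530.0 ± 99.0 CPM in MOLM13 down to 39.2 ± 2.91 CPM in F36P, the line that stood apart at the low end. KASUMI1 (413 ± 17.9), OCIAML3 (341 ± 10.3), MONOMAC6 (312 ± 15.1), THP1 (284 ± 8.25), OCIAML2 (251 ± 6.01), NB4 (248 ± 13.2), HL60 (174 ± 4.35), NOMO1 (164 ± 9.04) and MV411 (110.1 ± 0.959) lay between. ITGA6, the laminin receptor chain, was highest in KASUMI1 (44.1, 37.9 and 35.3 CPM) and NB4 (32.0, 29.5 and 32.8 CPM). HL60 (10.8 ± 0.906), MOLM13 (7.07 ± 0.850), THP1 (6.27 ± 0.0804) and OCIAML3 (5.55 ± 0.711) were intermediate, and NOMO1 (1.08 ± 0.288), OCIAML2 (1.08 ± 0.167), MONOMAC6 (0.512 ± 0.262) and F36P (0.412 ± 0.254) were low. ITGA6 was near absent from MV411, with 3 reads in its 3 untreated libraries. ITGB1, the partner of ITGA4, ITGA5 and ITGA6, was read in every line. F36P gave 216, 304 and 473 CPM, a spread so wide that it did not differ from KASUMI1 (275 ± 47.0; adjusted p = 0.119). The middle of the ITGB1 order was flat. OCIAML3, MONOMAC6 and THP1 had 160.0, 148 and 136 CPM, MOLM13, HL60, NB4 and NOMO1 had 107, 107, 101 and 101 CPM with no neighbours told apart, and MV411 (64.6) and OCIAML2 (52.2) were lowest. ITGB3 reached 3.12, 2.44 and 3.30 CPM in F36P and at most 0.495 CPM on average in any other line, with 0 reads in KASUMI1, MOLM13 and NB4.

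Of the 550 pairs of lines over the 10 genes, 483 (87.8%) differed in untreated cells, against 66.8% of the pairs over all genes tested, and 52 of the 100 pairs of neighbouring lines did. Per kb of exon, which allows genes to be compared, the median over lines was 33.9 CPM per kb for ITGA5, 31.6 for ITGB2, 27.0 for ITGAL and 23.2 for ITGA4. It was 7.36 for ITGB1, 3.37 for ITGB7, 1.53 for ITGAM, 1.37 for ITGAX, 0.831 for ITGA6 and 0.0255 for ITGB3. Among the beta 2 partners, the alpha chain with the highest level differed between lines. In NB4, ITGAM was at 4.58 CPM per kb against 0.595 for ITGAL, whereas in MV411 ITGAL was at 117 against 0.677 for ITGAM.

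**Figure D1:**
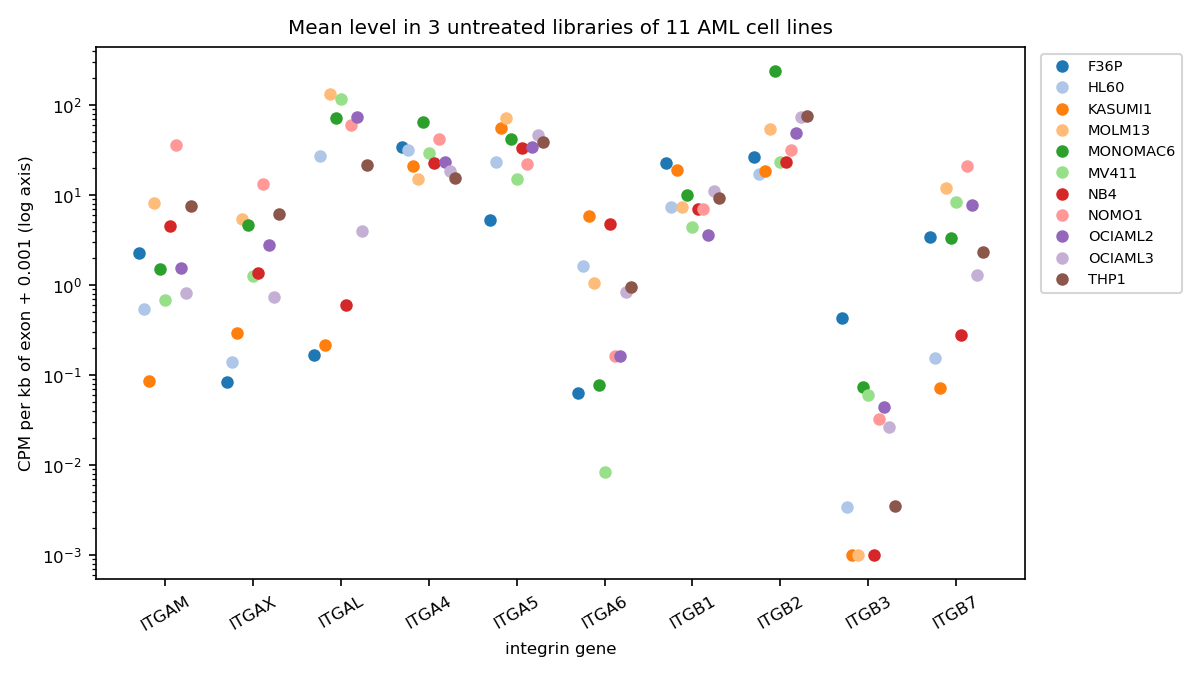
Level of each integrin gene in untreated cells of 11 AML cell lines (coloured points, mean of 3 libraries), as CPM per kb of exon plus 0.001 on a log axis. ITGA4 and ITGB1 lie within a narrow band in every line, ITGAM, ITGAX, ITGAL, ITGA6 and ITGB7 spread far wider, and ITGB3 is low in every line and highest in F36P.

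After etoposide, ITGAM and ITGB7 rose in 9 of 10 lines, ITGAX in 8 and ITGA6 in 7, and ITGA4 fell in 4, whereas ITGB1 and ITGB2 were called in 0. A gene was called when the quasi-likelihood test of edgeR gave a Benjamini-Hochberg adjusted p (FDR) below 0.05 over all genes of that line and the fold change was above 2. Over the 10 lines, 93 of the 100 gene and line pairs passed the filter on low counts, and the 7 others were ITGB3. Of the 93, 41 (44.1%) were induced and 4 (4.3%) repressed, against 11.1% and 3.96% of all pairs tested, and the median log2 fold change was 0.60 against 0.01. The 10 genes were chosen with earlier results of these data known, so this contrast is a description and no test. Pairs low before treatment, such as ITGA6 in MV411 (3 untreated reads) and ITGB7 in KASUMI1 (18), can pass the filter through treated libraries alone. Such a pair can hardly be called other than induced, which also limits the counts by gene and by line below. From here on, CPM is scaled within each line.

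**Figure D2:**
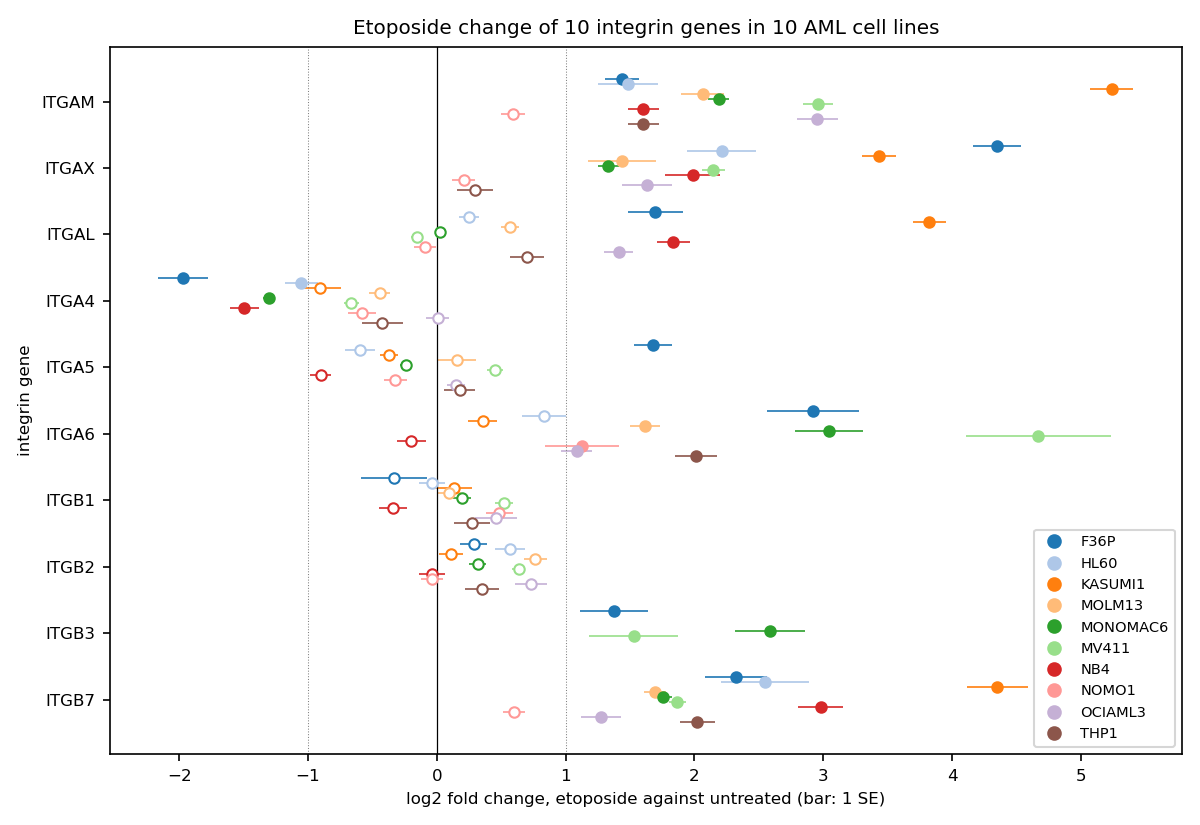
Log2 fold change of each integrin gene after etoposide in 10 lines (points, bars 1 SE). Filled points were called (FDR below 0.05, above 2-fold), open points were not. Dotted lines mark 2-fold. ITGAM and ITGB7 lie to the right in all 10 lines, ITGA4 to the left in 9 of 10, and ITGB1 and ITGB2 stay within 2-fold. ITGB3 was tested in 3 lines.

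ITGAM, the Mac-1 alpha chain, changed most in the line where it had been lowest. In KASUMI1 it was at 0.457, 0.420 and 0.548 CPM in the untreated libraries and at 18.7, 16.9 and 18.9 CPM after etoposide, a 38.2-fold difference of means and a log2 fold change of 5.24 ± 0.17 (SE; adjusted p = 1.00e-07). The treated libraries lay far above the untreated ones. MV411 went from 4.62, 4.56 and 3.18 to 33.5, 30.4 and 32.2 CPM (2.96 ± 0.12) and OCIAML3 from 4.33, 4.64 and 5.16 to 31.9, 33.1 and 44.8 CPM (2.96 ± 0.16). MONOMAC6 went from 8.32, 9.10 and 9.12 to 38.0, 40.7 and 42.5 CPM (2.19 ± 0.08), and MOLM13 from 34.0, 50.3 and 50.01 to 149, 213 and 200.01 CPM (2.07 ± 0.17). Treated and untreated libraries did not overlap in any of these lines. The rise was smaller in NB4 (27.4 ± 5.41 to 83.2 ± 3.76 CPM, mean ± SD; 1.60), THP1 (43.6 ± 1.99 to 133 ± 4.90; 1.60), HL60 (3.27 ± 0.847 to 9.22 ± 2.51; 1.49) and F36P (13.6 ± 1.40 to 36.8 ± 2.10; 1.44). NOMO1, the line with the most ITGAM at the start, had 229, 245 and 219.6 CPM before and 388, 319 and 337 CPM after. There the difference passed the FDR limit below 2-fold (0.59 ± 0.09, adjusted p = 0.000194). The untreated level is the base of each fold change, so basal level and change are not independent, here and for the genes below. Nor was the order strict, as HL60, also low at the start, rose by 1.49 against 2.07 in MOLM13.

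ITGAX, the CD11c chain of p150,95, rose most in F36P, from 0.564, 0.638 and 0.668 to 12.8, 12.1 and 13.6 CPM (4.35 ± 0.19, adjusted p = 5.16e-07), and in KASUMI1, from 2.18, 2.10 and 1.92 to 21.5, 21.5 and 24.2 CPM (3.43 ± 0.13). Both lines had little ITGAX before. MV411 went from 10.2, 9.97 and 8.55 to 43.2, 42.0 and 42.0 CPM, and NB4, whose untreated libraries were uneven, from 6.30, 9.11 and 15.1 to 35.3, 40.8 and 44.3 CPM. In both lines the groups stayed apart. HL60, OCIAML3, MOLM13 and MONOMAC6 were also induced, with log2 fold changes of 2.21, 1.63, 1.44 and 1.33. The 2 lines with the highest basal level were not called. NOMO1 gave 108, 98.3 and 107 CPM before and 133, 113 and 116 CPM after (0.21 ± 0.09, adjusted p = 0.0649), and THP1 gave 46.6, 41.0 and 45.2 CPM before and 58.9, 60.3 and 43.8 CPM after, which overlapped (0.30 ± 0.14, adjusted p = 0.117).

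ITGAX and ITGAM did not keep a fixed proportion. Per kb of exon, the ratio of ITGAX to ITGAM in F36P was 0.0372 (range 0.0298 to 0.0423) before and 0.281 (range 0.257 to 0.318) after etoposide. In KASUMI1 it went the other way, from 3.56 (range 2.81 to 4.02) to 0.995 (range 0.924 to 1.03). MONOMAC6, in which ITGAX exceeded ITGAM, went from 3.07 (range 2.83 to 3.28) to 1.70 (range 1.67 to 1.73), and THP1 from 0.815 (range 0.787 to 0.865) to 0.331 (range 0.255 to 0.376). The ranges of 3 libraries did not overlap in any of these 4 lines, and no test was run on the ratio.

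ITGAL rose in 4 lines, and these were the 4 with the lowest level before treatment. KASUMI1 went from 2.29, 1.94 and 2.14 to 32.7, 28.1 and 29.7 CPM (3.82 ± 0.13, adjusted p = 1.00e-07) and NB4 from 5.39, 6.88 and 6.24 to 22.7, 20.7 and 22.7 CPM (1.84 ± 0.13). F36P went from 2.03, 1.16 and 2.06 to 5.76, 5.55 and 5.79 CPM (1.70 ± 0.22) and OCIAML3 from 34.5, 40.7 and 42.2 to 99.9, 94.3 and 118 CPM (1.41 ± 0.11). Even after these rises the 4 lines had lower CPM than all the others, although CPM scaled within each line has no common scale between lines. Among the lines rich in ITGAL, MOLM13 had 1252 ± 57.1 CPM before and 1856 ± 129 CPM after (0.57 ± 0.07), THP1 219.9 ± 15.2 and 357 ± 59.2 CPM (0.70 ± 0.13), and HL60 285 ± 8.18 and 339 ± 12.1 CPM (0.25 ± 0.08), all past the FDR limit at below 2-fold. MV411 passed it in the other direction, with 1246, 1251 and 1201 CPM before and 1099, 1134 and 1089 CPM after (-0.15 ± 0.05). MONOMAC6 and NOMO1 overlapped, with log2 fold changes of 0.02 and -0.09.

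ITGB2, the beta chain common to these 3 alpha chains, was called in 0 of 10 lines, and its log2 fold change lay between -0.04 in NOMO1 and 0.77 in MOLM13. It nevertheless passed the FDR limit upwards in 7 lines at below 2-fold. MOLM13 had 347, 396 and 386 CPM before and 551, 691 and 678 CPM after, OCIAML3 had 476, 561 and 594 CPM before and 808, 831 and 1071 CPM after, and MV411 had 178, 186 and 184 CPM before and 269, 296 and 286 CPM after. These treated libraries all stood above the untreated ones. HL60, THP1, MONOMAC6 and F36P had log2 fold changes of 0.57, 0.35, 0.32 and 0.29. KASUMI1 and NB4, at 0.11 and -0.04, had overlapping libraries, as did NOMO1, and the values of NB4 and NOMO1 turned above 0 when libraries were scaled by size alone. In KASUMI1 ITGB2 was at 121, 139.5 and 142 CPM in the untreated libraries and at 132, 158 and 145 CPM after etoposide while ITGAM, ITGAX and ITGAL rose by 5.24, 3.43 and 3.82 on the log2 scale.

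**Figure D3:**
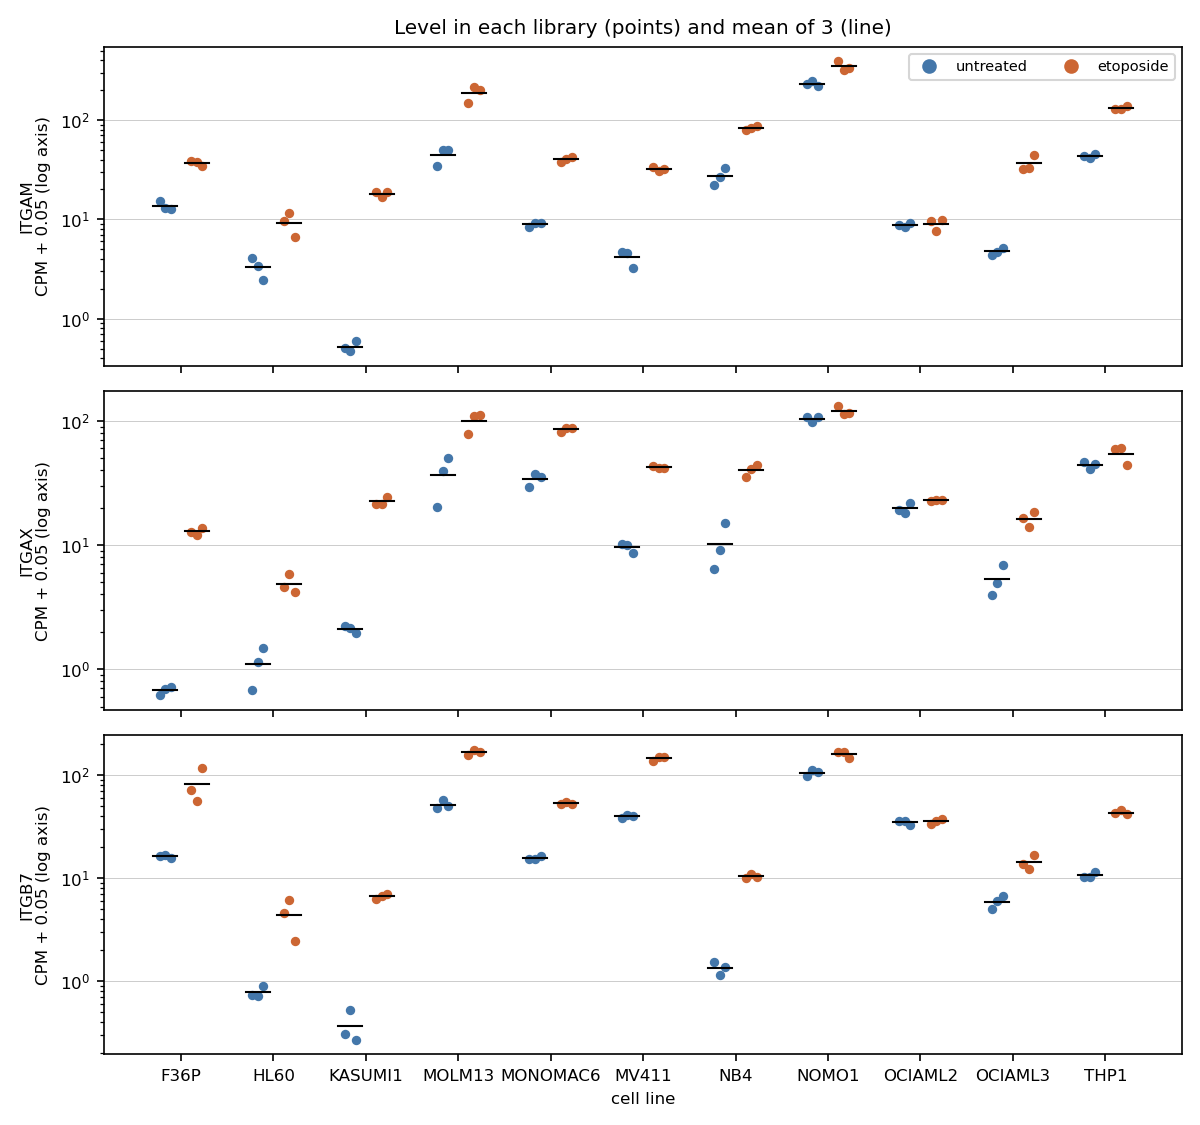
Level of ITGAM, ITGAX and ITGB7 in each library (points, blue untreated, orange etoposide, black line the mean of 3) of the 11 lines, as CPM plus 0.05 on a log axis. The treated points stand above the untreated ones in most lines, most widely in KASUMI1 for ITGAM and ITGB7 and in F36P for ITGAX, and lie at nearly the same height in OCIAML2.

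ITGB7, the beta chain of gut-homing integrins, rose in 9 lines. KASUMI1 again changed most, from 0.254, 0.473 and 0.219 to 6.16, 6.57 and 6.99 CPM (4.35 ± 0.24, adjusted p = 8.25e-07), and NB4 went from 1.47, 1.09 and 1.32 to 9.88, 10.9 and 10.1 CPM (2.98 ± 0.18). HL60, which also began low, went from 0.678, 0.671 and 0.851 to 4.53, 6.04 and 2.41 CPM (2.55 ± 0.34). Lines that began higher rose as well. MOLM13 went from 47.4, 56.4 and 49.96 to 156, 176 and 166 CPM (1.69 ± 0.08), MV411 from 38.2, 41.1 and 40.0 to 136, 151 and 149 CPM (1.87 ± 0.07) and MONOMAC6 from 15.3, 15.3 and 16.3 to 51.8, 54.8 and 52.0 CPM (1.76 ± 0.07). F36P rose with uneven treated libraries, from 16.2, 16.8 and 15.6 to 71.9, 55.7 and 116 CPM, and THP1 and OCIAML3 had log2 fold changes of 2.02 and 1.27. NOMO1, highest at the start, passed the FDR limit below 2-fold, with 97.9, 111 and 107 CPM before and 166, 166 and 145 CPM after (0.60 ± 0.09). ZNF740, which shares 1881 exon bases with ITGB7 on the other strand, lay between -0.16 and 0.11 on the log2 scale in the 10 lines and was called in 0. ITGA4 shares more, 2813 exon bases with CERKL on the other strand, and the change of CERKL was not examined. ITGAL, ITGA5, ITGA6, ITGB1 and ITGB2 share fewer such bases with other genes. Reads were found on 449 of the 641 genes nested in an exon of the other strand. That nesting was drawn on a later gencode release than the counts. These reads therefore do not settle whether the deposited column was counted by strand.

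ITGA4, which pairs with ITGB7 and ITGB1, was the only one of the 10 genes to be called lower in any line. It fell in F36P from 272, 395 and 488 to 109.5, 92.5 and 93.4 CPM (-1.97 ± 0.19, adjusted p = 2.09e-05), in NB4 from 281, 226 and 258 to 106, 85.5 and 79.7 CPM (-1.497 ± 0.11), and in MONOMAC6 from 742, 697 and 718 to 293, 281 and 298 CPM (-1.31 ± 0.04). In HL60 it fell from 389.6, 355 and 342 to 189.6, 200.9 and 133 CPM (-1.05 ± 0.13), a value close to the 2-fold limit. The log2 fold change of ITGA4 in HL60 was no longer past that limit without untreated replicate 1 or etoposide replicate 3 of this line (-0.99 and -0.88), and with scaling by library size alone (-0.95). KASUMI1 (223 ± 44.9 to 119 ± 21.7 CPM; -0.91 ± 0.17), MV411 (-0.66), NOMO1 (-0.58), MOLM13 (-0.44) and THP1 (-0.42) passed the FDR limit downwards at below 2-fold. OCIAML3 was the exception. It had 209.6, 182 and 204 CPM before and 215, 205 and 178 CPM after (0.01 ± 0.09, adjusted p = 0.965).

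ITGB7 was called only upwards and ITGA4 only downwards. These chains of a single receptor therefore moved in opposite directions wherever both were called (F36P, HL60, MONOMAC6 and NB4). In NB4 ITGB7 rose by 2.98 while ITGA4 fell by 1.497 on the log2 scale. Relative to ITGB1, the other partner of ITGA4, ITGB7 per kb of exon in NB4 went from 0.0396 (range 0.0375 to 0.0429) to 0.405 (range 0.331 to 0.454). In MV411 the ratio went from 1.89 (range 1.68 to 2.03) to 4.81 (range 4.30 to 5.38), and in MOLM13 from 1.63 (range 1.52 to 1.84) to 5.02 (range 4.19 to 6.07). The 3 lines that follow came close to a ratio of 1. Such a value depends on the exon lengths used, so it does not show which beta chain was more abundant. F36P went from 0.1704 (range 0.0986 to 0.244) to 0.973 (range 0.657 to 1.52), MONOMAC6 from 0.334 (range 0.299 to 0.356) to 0.988 (range 0.885 to 1.11), and THP1 from 0.248 (range 0.229 to 0.265) to 0.863 (range 0.689 to 1.13). In NOMO1 the ranges overlapped, at 3.08 (range 2.47 to 3.39) and 3.32 (range 2.80 to 3.90).

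ITGA6 rose in 7 lines, whereas ITGA5 rose in 1. THP1 went from 6.44, 6.54 and 6.33 to 30.5, 20.8 and 26.8 CPM (2.01 ± 0.16, adjusted p = 4.95e-08) and MOLM13 from 6.53, 7.71 and 6.14 to 22.3, 20.9 and 19.3 CPM (1.61 ± 0.12). From under 1 CPM, MONOMAC6 went from 0.408, 0.846 and 0.343 to 5.08, 3.81 and 4.41 CPM (3.05 ± 0.26) and F36P from 0.282, 0.754 and 0.278 to 4.20, 2.67 and 3.14 CPM (2.92 ± 0.36). MV411 held 3 reads in 3 untreated libraries and 111 reads after etoposide, a depth-corrected ratio of 30.7 with a 95% counting interval of 10.2 to 151. OCIAML3 (1.08 ± 0.12) and NOMO1 (1.12 ± 0.29) were just past the 2-fold limit. Both calls depended on single libraries. The NOMO1 call was lost without untreated replicate 2 or etoposide replicate 3, and the OCIAML3 call without untreated replicate 2. The 3 lines with the highest basal level were not called. HL60 gave 0.83 ± 0.17, KASUMI1 0.36 ± 0.11 and NB4 -0.20 ± 0.11, and in NB4 the libraries overlapped (33.5, 30.9 and 34.8 CPM before and 33.2, 26.5 and 26.8 CPM after), with a sign that turned under scaling by library size alone.

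**Figure D4:**
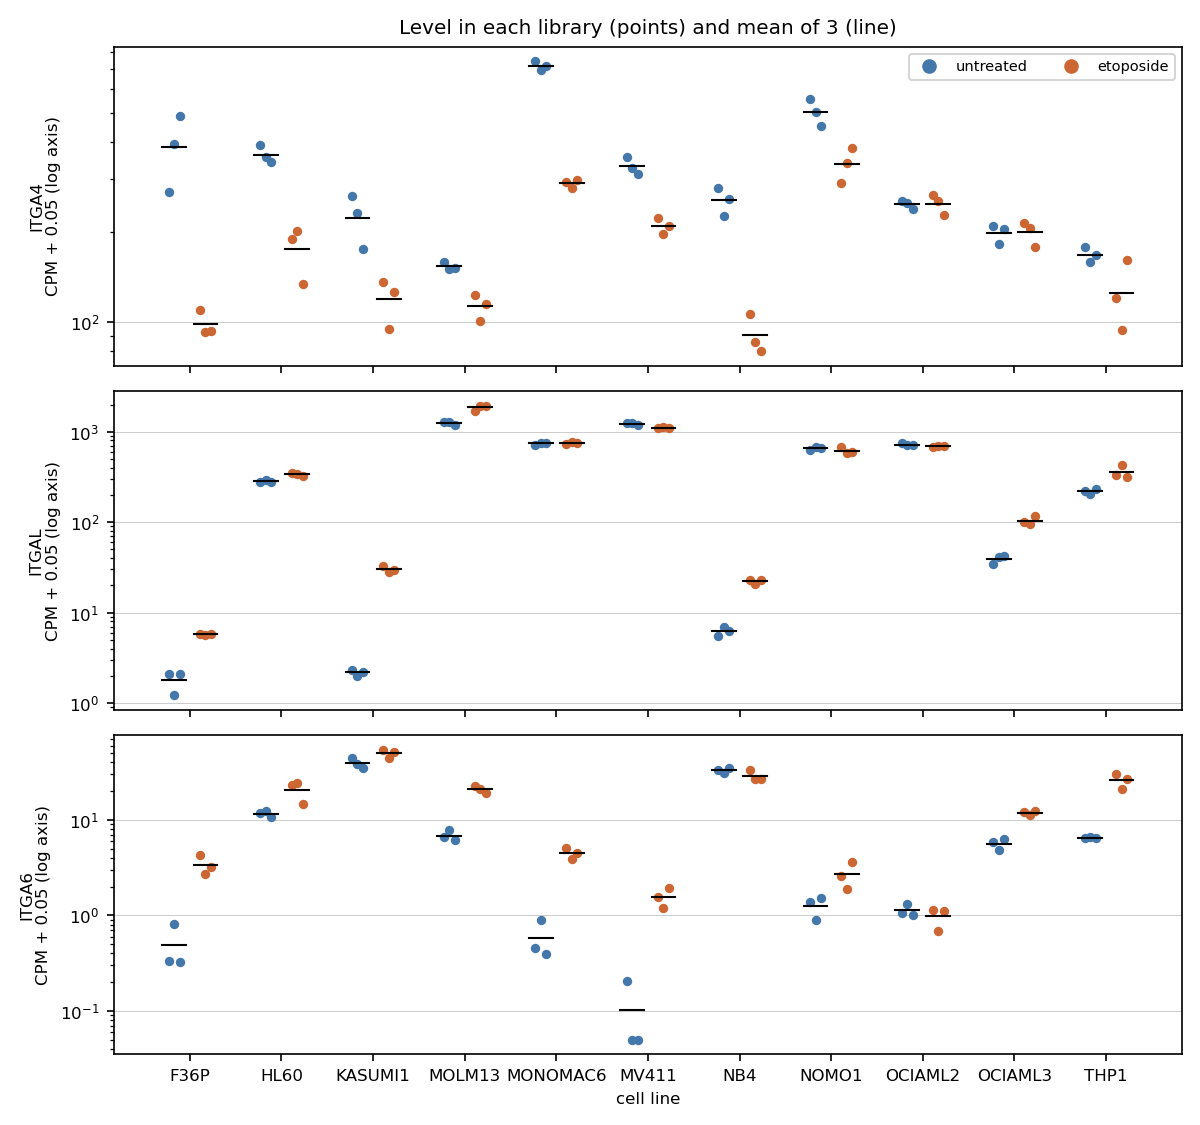
Level of ITGA4, ITGAL and ITGA6 in each library (points, blue untreated, orange etoposide, black line the mean of 3) of the 11 lines, as CPM plus 0.05 on a log axis. ITGA4 was lower in all treated libraries of F36P, HL60, MONOMAC6 and NB4, ITGAL was higher in the 4 lines where it had been lowest, and ITGA6 was higher in most lines but not in NB4 or OCIAML2.

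ITGA5 rose in F36P, the line with the least of it, from 42.0, 38.4 and 44.1 to 116, 122 and 160.1 CPM (1.68 ± 0.15, adjusted p = 1.05e-05). In the other lines it stayed within 2-fold and took both directions. NB4 (261 ± 15.4 to 139.9 ± 4.87 CPM; -0.90 ± 0.08), HL60 (-0.60), KASUMI1 (-0.37), NOMO1 (-0.32) and MONOMAC6 (-0.24) passed the FDR limit downwards, and MV411 (118 ± 1.63 to 161 ± 14.1 CPM; 0.45 ± 0.06) passed it upwards. For ITGA4 and ITGA5, the fibronectin-binding alpha chains, the mean ratio per kb of exon crossed from above to below 1 in 4 lines. Whether a ratio lies above or below 1 depends on the exon lengths used. In F36P the ratio of ITGA4 to ITGA5 per kb of exon went from 6.42 (range 4.496 to 7.67) to 0.528 (range 0.404 to 0.655), in MONOMAC6 from 1.54 (range 1.47 to 1.67) to 0.735 (range 0.685 to 0.760), in MV411 from 1.95 (range 1.84 to 2.13) to 0.908 (range 0.828 to 1.05), and in HL60 from 1.35 (range 1.26 to 1.42) to 0.982 (range 0.947 to 1.04). ITGB1, the beta chain shared by these alpha chains, was called in 0 lines, and its log2 fold change lay between -0.34 in NB4 and 0.52 in MV411. MV411 (74.1, 68.4 and 64.5 CPM before and 103, 91.6 and 102 CPM after) and NOMO1 (129, 107 and 103 CPM before and 139.6, 166 and 170.0 CPM after) were past the FDR limit without overlap, and MONOMAC6 (0.20) and NB4 (-0.34) were past it with overlap. In F36P the untreated libraries alone ran from 218 to 519 CPM, and the difference was not detectable (-0.33 ± 0.26, adjusted p = 0.288).

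ITGB3 passed the filter on low counts in 3 lines and rose in all 3. F36P, which also carried 421 ± 13.9 CPM of its platelet partner ITGA2B, went from 3.16, 2.61 and 3.62 to 6.09, 6.81 and 11.5 CPM (1.38 ± 0.26, adjusted p = 0.00116). MONOMAC6 went from 0.459, 0.398 and 0.687 to 3.97, 2.79 and 2.62 CPM (2.59 ± 0.27), and MV411 from 0.472, 0.399 and 0.417 to 1.38, 0.797 and 1.59 CPM (1.53 ± 0.35). In the other 7 lines the mean was under 1 CPM in both groups. KASUMI1 had 0 reads before and 8 after, at least 2.61-fold higher against a floor of 3 reads per group, and NOMO1 had 14 and 38 reads. A gene that enters the test only where it is read is not a random sample of lines, so the 3 of 3 is no measure of all lines.

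By line, F36P had the most calls, 7 of 10 genes induced and 1 repressed, where 24.3% and 6.67% of all genes tested were. MONOMAC6 had 5 and 1 of 10 (8.53% and 4.47% of all genes), MV411 5 and 0 of 10 (12.5% and 2.63%), and OCIAML3 5 and 0 of 9 (7.18% and 1.36%). Every one of these lines had a larger share of the integrin genes induced than of all genes. KASUMI1 had 4 and 0 of 9 (14.6% and 6.52%), MOLM13 4 and 0 of 9 (8.59% and 3.37%) and NB4 4 and 1 of 9 (13.2% and 4.82%). HL60 had 3 and 1 of 9 (5.34% and 1.24%), and THP1 3 and 0 of 9 (6.38% and 3.46%). NOMO1 was the line nearest to the background, with 1 and 0 of 9 (8.34% and 4.43%), and that gene was ITGA6. NOMO1 also had the highest basal level of ITGAM, ITGAX and ITGB7.

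Averaged over the 10 lines with each line as 1 value, ITGAM (mean log2 fold change 2.21 ± 1.28, SD, n = 10), ITGB7 (2.14 ± 1.02) and ITGAX (1.90 ± 1.27) were higher in 10 of 10 lines. An exact two-sided sign-flip permutation test gave an adjusted p of 0.00991 for each, and their unadjusted p of 0.00195 is the smallest that all sign flips over 10 lines can give. ITGA6 (1.75 ± 1.46) was higher in 9 of 10 lines and ITGA4 (-0.88 ± 0.59) lower in 9 of 10, with an adjusted exact p of 0.0147 each. The mean of ITGA6 includes lines where it could pass the filter through treated libraries alone, such as MV411. ITGB2 (0.37 ± 0.30, higher in 8 of 10 or, with library size alone, in every line, adjusted exact p = 0.0234) and ITGAL (1.006 ± 1.23, 8 of 10, adjusted exact p = 0.0352) also passed, although the mean log2 fold change of ITGAL over 10 lines no longer passed once F36P was left out (0.93, adjusted exact p = 0.0639). ITGB1 (0.15 ± 0.31, adjusted exact p = 0.257) and ITGA5 (0.02 ± 0.71, adjusted exact p = 0.962) did not pass. Of all 10588 genes tested in every line, 17.6% passed upwards and 25.7% downwards, against 6 and 1 of the 9 integrin genes.

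The size of the response differed between lines for 9 of the 10 genes by an interaction test over 60 libraries, where 74.5% of all genes did, and ITGB3 did not pass (adjusted p = 0.118). The change of a line was then set against the mean of the other 9, which differed in 53 of 100 gene and line pairs, against 22.0% of the pairs over all genes. KASUMI1 exceeded the others for ITGAM by 3.39 ± 0.28 (log2, SE), for ITGAL by 3.15 ± 0.14 and for ITGB7 by 2.48 ± 0.36. F36P exceeded them for ITGAX by 2.74 ± 0.36 and for ITGA5 by 1.86 ± 0.13. ITGAM in F36P, in contrast, lay below the others (-0.85 ± 0.16). MV411 exceeded the others for ITGA6 by 3.25 ± 0.68, resting on 3 untreated reads. NOMO1, THP1 and NB4 stood at the other end for single genes. NOMO1 lay below the others for ITGAM (-1.86 ± 0.15), ITGAX (-1.94 ± 0.20) and ITGB7 (-1.77 ± 0.16), THP1 for ITGAX (-1.77 ± 0.20) and NB4 for ITGA6 (-2.14 ± 0.20). For ITGA4, F36P (-1.17 ± 0.16) lay lower than the others and OCIAML3 (0.94 ± 0.16) higher.

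In OCIAML2, the line whose treated libraries the authors set aside, 0 of 13604 genes were called (0.0%), with 456 at an unadjusted p under 0.05 and 0 called by DESeq2. ITGAM was at 8.63, 8.40 and 9.17 CPM in the untreated libraries and at 9.48, 7.66 and 9.85 CPM after etoposide, and ITGB7 at 36.01, 35.6 and 32.9 CPM in the untreated libraries and at 33.5, 35.5 and 37.1 CPM after etoposide. ITGA4 was at 254, 249.9 and 239 CPM in the untreated libraries and at 265, 253 and 227 CPM after etoposide. These groups overlapped, and the 9 integrin genes tested had an adjusted p of at least 0.998 in this line. For ITGAX, the libraries did not overlap (19.2, 18.1 and 21.8 CPM before and 22.5, 23.1 and 23.2 CPM after, 0.22 ± 0.08), and it was the one integrin gene with an unadjusted p under 0.05 there.

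The other genes of the integrin pathway were counted from 5 lists, beside the 11.1% induced and 3.96% repressed among all pairs tested. These lists, too, were chosen with earlier results of these data known. A line can enter the test through its treated libraries alone, so a count over the lines tested is no measure of all lines for a gene that was low before treatment, such as ITGA11, THBS1 or RASGRP3. Of the 16 other integrin subunits, 15 were tested in a line, and of their 103 gene and line pairs 40 (38.8%) were induced and 3 (2.91%) repressed. ITGA11, a collagen receptor chain, was induced in 8 of 8 lines where it was tested. NB4 went from 1.42 ± 0.812 to 27.4 ± 2.92 CPM and NOMO1 from 6.22 ± 0.276 to 17.2 ± 0.823 CPM. ITGA2B was induced in 5 of 10 lines, as in MV411 (1.08 ± 0.236 to 5.39 ± 0.473 CPM), whereas F36P, with far more of it, gave 421 ± 13.9 and 370.2 ± 36.5 CPM. Among 21 ligands, 54 of 119 pairs (45.4%) were induced and 6 (5.04%) repressed. THBS1, a matrix protein, was induced in 8 of 8 lines tested, as in NOMO1 (19.6 ± 2.63 to 672 ± 258 CPM) and OCIAML3 (1.86 ± 0.712 to 88.5 ± 18.6 CPM). ICAM1, the ligand of LFA-1 and Mac-1, was induced in 8 of 10, as in HL60 (1.72 ± 0.481 to 20.1 ± 3.55 CPM), but not in OCIAML3 (9.90 ± 1.43 and 8.44 ± 1.44 CPM). VCAM1, the ligand of ITGA4 with ITGB1, passed the filter in 0 lines.

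The 3 remaining lists hold proteins inside the cell or beside the receptor, and their induced shares lay nearer to the 11.1% of all pairs. Of 24 activators and adaptors, 40 of 222 pairs (18.0%) were induced and 11 (4.95%) repressed. RASGRP3, an exchange factor of RAP1, was induced in 9 of 9 lines tested, as in NB4 (6.95 ± 0.875 to 21.7 ± 1.46 CPM). RASGRP2, of the same family, went the other way in 10 lines (log2 -1.41 to -0.28), repressed in 2 and induced in 0. Untreated lines held 54.3 to 338 CPM of RASGRP2, against 0.0354 to 7.45 CPM of RASGRP3. TYROBP, a signalling adaptor of myeloid receptors, was induced in 7 of 10, and in KASUMI1 went from 0.475 ± 0.0657 to 16.2 ± 3.22 CPM. Of 26 genes of outside-in signalling and focal contacts, 35 of 233 pairs (15%) were induced and 9 (3.86%) repressed. The paxillin relative LPXN was induced in 7 of 10 lines, as in THP1 (12.6 ± 0.990 to 49.1 ± 2.45 CPM), and the docking protein BCAR1 in 5 of 8, as in NOMO1 (13.7 ± 1.89 to 32.5 ± 1.58 CPM). Of 16 tetraspanins and partners, 22 of 151 pairs (14.6%) were induced and 0 repressed. The tetraspanin CD82 was induced in 5 of 10 lines, as in OCIAML3 (9.57 ± 1.41 to 37.9 ± 3.90 CPM), and CD9 in 3 of 5, as in MV411 (2.53 ± 0.479 to 9.52 ± 0.963 CPM).

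The genes whose basal pattern was most like each integrin were ranked by Pearson's r of log2(CPM + 1) over the 11 untreated lines, among 10756 genes. The points share the scaling and depth of their libraries, and the ranks are a description. For ITGAM they were TMEM60 (r = 0.87) and SEM1 (r = 0.86), for ITGAX MTMR11 (r = 0.93) and TNN (r = 0.92), and for ITGAL KCNN2 (r = 0.94). For ITGB2 they were RBM47 (r = 0.93) and ENSG00000233461 (r = 0.93), and for ITGB7 ITGAE (r = 0.90) and B9D2 (r = 0.89). ITGA4 was most like DICER1 (r = 0.84) and SKA1 (r = 0.82), ITGA5 like GRN (r = 0.93) and IRAK3 (r = 0.90), ITGA6 like ENSG00000275764 (r = 0.85), and ITGB1 like CKB (r = 0.93) and MALAT1 (r = 0.92). ITGAE, first for ITGB7, is the alpha chain that ITGB7 binds besides ITGA4, and ITGB3 was too low to be ranked.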

How the data were processed

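RNA of 66 libraries from 11 AML cell lines, untreated or after 24 h of etoposide at the IC50 of the line, was sequenced by the study. According to the methods and the submitters' processing notes, the authors checked the reads with FastQC 0.11.5 and counted them per gene with STAR 2.5.3a on GRCh38.p7. The deposited values are raw counts, 1 column per library. Which STAR column was kept is not given in the sources used here. Of 58037 gene identifiers, 45 pseudoautosomal Y copies with 0 reads were left out, and names for 56948 of the others came from gencode 44. Groups came from the sample titles.

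Each line was fitted with edgeR 4.0.16 in R 4.3.3 (minimum count 10, minimum total 15, TMM, quasi-likelihood test). The standard error was the log2 fold change divided by the square root of F. Genes at an FDR below 0.05 that changed more than 2-fold were called. A single fit of 60 libraries without OCIAML2 gave the interaction tests, 1 of 33 untreated libraries gave the pairs of lines, and an exact two-sided sign-flip permutation test over 10 lines gave common directions. Counting intervals were exact at 95% and, with the floor of 3 reads per group, cover counting error only. Totals of 17997404 to 24101670 reads set the depth behind every value.

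The 10 genes, the pathway lists and the marker lists were chosen with earlier results of these data known. Besides the 10 genes, the text names the 2 genes of each list called in the most lines (ties by the larger mean absolute log2 fold change), the 2 genes most like each integrin gene in untreated cells, and markers. Of the like genes, 1 each for ITGAL and ITGA6 is not reported here. Other genes named were chosen after their values were seen. Alternatives were RLE and library size scaling, other filters, DESeq2 1.42.0, a single fit, no fold minimum, the replicate number as a block, and leaving out replicates, F36P or 3 libraries that stood apart. The last alternative was added after the data were seen. Replicate pairs differed beyond sampling noise (chi-square per degree of freedom 2.05 to 83.5), so all libraries were kept. The replicate numbers were tested for pairing by the correlation of deviations from group means. Samples were taken as paired where the lowest r of a line was above 0.1, which held in NB4 alone (lowest r 0.15). MOLM13 (0.089) and OCIAML2 (0.082) lay just below this limit. Differently numbered samples were not compared, so matched replicates in NB4 are not shown. The scripts were tested on simulated data.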

Additional observations from a re-analysis of the deposited data

Results flagged for a closer look

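The change after etoposide differed between the 10 lines for 9 of the 10 genes, by the interaction test of edgeR with Benjamini-Hochberg adjustment. The adjusted p was 1.42e-27 for ITGAL, 3.23e-18 for ITGAM, 8.51e-18 for ITGA5, 2.27e-15 for ITGAX, 3.04e-13 for ITGB7 and 3.34e-14 for ITGA6. It was 1.24e-10 for ITGA4, 2.89e-06 for ITGB2 and 0.00609 for ITGB1. The same test passed for 74.5% of all genes, and the doses differed between lines, so line and dose cannot be told apart. ITGA6 in MV411 rests on 3 untreated reads.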

How the results depend on the processing

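The 41 induced calls ranged from 40 to 42, and the 4 repressed calls from 3 to 5, when each replicate number was left out in turn, with ITGB3 pairs that passed the filter only then counted. With no fold change minimum 16 repressed and 59 induced pairs passed, and a filter at a mean of 5 CPM left 31 induced calls because 10 called pairs were not tested there. The genes with a response that differed between lines numbered 9 to 10, those with a common direction 7 to 7, and neighbouring lines that differed 42 to 52, without single replicates. ITGB1 gained a common direction with library size alone, and ITGAL lost it without F36P. Scaling by library size alone moved the median log2 fold change of all genes by 0.25 in F36P, 0.21 in NB4, 0.17 in KASUMI1, 0.13 in MV411, 0.12 in MONOMAC6 and 0.10 in HL60.

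The values that changed sign were small and belonged to pairs that were not called, and the cause was not tested. The log2 fold change of ITGA4 in OCIAML3 was -0.018 with RLE and with DESeq2, -0.0055 in the single fit and -0.061 to 0.082 without single replicates. The log2 fold change of ITGB1 in HL60 was 0.067 with library size alone and -0.13 to 0.038 without single replicates, and the log2 fold change of ITGB1 in KASUMI1 ranged from -0.0032 to 0.24. The log2 fold change of ITGB2 in NB4 was 0.17 with library size alone, 0.029 with the filter at 5 CPM, 0.013 in the single fit and -0.13 to 0.048 without single replicates. With library size alone, the log2 fold change of ITGB2 in NOMO1 was 0.021 and the log2 fold change of ITGA6 in NB4 was 0.0064. The mean log2 fold change of ITGA5 over 10 lines was -0.0082 to 0.053 without single replicates and -0.17 without F36P.

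With the replicate number as a block, the pairing gave 41 induced and 4 repressed calls, 9 genes that differed between lines and 7 with a common direction, and it changed no call. In the 10 lines other than NB4 the lowest correlation of same-numbered samples was between -0.33 and 0.089. ITGB3 and ITGA6 in MV411 are limited by depth, with few reads before treatment.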

Other observations

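Members of the pathway lists outside the named genes were also called, and they are given as counts chosen after their values were seen. FN1, the fibronectin bound by ITGA4 and ITGA5 with ITGB1, was induced in 6 lines, which were those where it passed the filter. A line can pass it through its treated libraries alone, so these counts are no measure of all lines. ITGA1 and ITGA3, partners of ITGB1, were induced in 4 of 6 and 4 of 7 lines tested. Of the kindlins, which bind the tails of beta chains, FERMT1 was repressed in 5 of 8 lines (median -1.42) and induced in 0. FERMT2, low before treatment, was induced in 3 of the 4 lines where it passed the filter, and FERMT3, the kindlin of blood cells, in 4 of 10 (median 0.80).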
